A study of Mus musculus with 8 samples.

Results

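The genes described here encode the machinery that segregates chromosomes in mitosis: centromere and kinetochore proteins, the spindle checkpoint, the cohesin protease and its inhibitor, mitotic kinases, kinesin motors, condensin and cytokinesis factors. They were chosen by name, as 18 genes with a symbol of the Cenp series, 11 kinesin genes and 36 further listed genes, which gives 65 of the 24279 genes in the deposited tables. All 65 were tested in both comparisons, so no member was lost to a filter on low values. The choice by symbol also took in Cenpj, which encodes a centriole assembly protein rather than a centromere protein.

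The 8 RNA sequencing libraries came from mouse embryonic stem cells after 6 days of culture without leukemia inhibitory factor (LIF), a cytokine that keeps such cells undifferentiated. Each of the 4 groups had 2 libraries. The noDox cells lack Argonaute 1 to 4 (AGO1-4-/-), the proteins that carry microRNAs to their targets. The DOX cells have the same deletions and express AGO2 alone under doxycycline, the NLS cells have them and express AGO2 with a nuclear localization signal alone, and the E14 cells are wild type. Per the labels, all groups shared passages 8 to 15 and a protocol with 2.5 µg/ml doxycycline daily, noDox included, and all carry the cell description of a line with inducible HA-Flag-AGO2, the wild-type group included. The labels do not say whether the libraries of a group came from separate cultures or how many clones were used.

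The tables hold 1 RPKM value per group (reads scaled to transcript length and to the mapped reads of the library), pooled over both libraries, so no spread between libraries can be shown. Every error below is the standard error (SE) that the authors' test statistic implies for a log2 fold, and a gene counts as changed where the authors' deposited table gives q < 0.05. The table named for E14 repeated the table named for DOX in 24279 of 24279 lines, so a single comparison carries both names. Its values are given as those of the DOX/E14 group, because Ago1 stood at 0.0159 RPKM in noDox and at 16.7 RPKM in that group, against a label that describes AGO2 as the sole Argonaute. That Ago1 difference did not pass (the authors' deposited table has q = 0.233). Ago4 stood at 0.316 RPKM in noDox and at 0.0798 RPKM in DOX/E14. Ago2 RNA was present in noDox, at 26.1 RPKM. Ago3 stood at 7.56 RPKM there, fell to 3.001 RPKM in DOX/E14 and rose to 14.5 RPKM in NLS, by the q values of the authors' deposited table. The gene-level values of Ago2 and Ago3 thus do not show the deletions that the noDox label gives. For these genes such a value does not separate a deleted gene from an intact one. Of 10 embryonic stem cell markers all stood at 1 RPKM or more in every group, with summed levels of 4425 RPKM (noDox), 2163 (DOX/E14) and 3677 (NLS). Most of the drop in DOX/E14 came from Dppa5a, at 2555 RPKM in noDox and 645 RPKM in DOX/E14. In that group 3 of the 10 rose, Lin28a from 1.35 to 248 RPKM among them, and 5 fell. Beside Dppa5a the falls were those of Nanog (431 to 69.3 RPKM), Esrrb (189 to 33.7 RPKM), Sox2 (184 to 53.2 RPKM) and Zfp42 (254 to 107 RPKM). Markers of other cell types were low beside the stem cell markers. Those of fibroblasts summed to 2.74, 14.5 and 5.07 RPKM in the same order, and those of extraembryonic endoderm to 3.09, 6.51 and 4.33 RPKM. The neuron markers summed to 62.2, 95.7 and 92.5 RPKM and the trophoblast markers to 24.8, 30.8 and 28.1 RPKM. The neuron sums came mostly from Stmn2 and Tubb3. Most of the trophoblast sum in noDox came from Tfap2c, which fell from 18.4 to 10.8 RPKM in DOX/E14, while Krt7, Eomes and Ascl2 rose there. The part of these markers in the results below was not tested.

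As background, chromosomes are pulled apart by spindle microtubules that attach to kinetochores, protein assemblies built on centromeric chromatin marked by the histone variant CENP-A. Unattached kinetochores hold the cell in metaphase through the spindle checkpoint, until CDC20 activates the anaphase-promoting complex and separase opens the cohesin rings. Transcripts of these genes rise late in the cell cycle. Many of their promoters carry a cell cycle genes homology region (CHR), where the DREAM complex and its MuvB core bind, next to CCAAT boxes. Embryonic stem cells divide fast, and these genes are strongly expressed in them. In whole-culture RNA, more cells in mitosis and more RNA per mitotic cell cannot be told apart.

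In noDox, the cells labelled AGO1-4-/-, 55 of 65 stood at 10 RPKM or more, with a median of 25.8 RPKM and values from 1.21 RPKM for Pttg1 to 121 RPKM for Top2a, the topoisomerase that untangles sister chromatids. The median level was 31.5 RPKM in DOX/E14, where Cdc20 was highest at 203 RPKM, and 29.3 RPKM in NLS, where Cdc20 was again highest at 134 RPKM. The NLS table was scaled on its own and puts noDox 1.03 times higher than the DOX/E14 table, so each group is compared with noDox within its own table. Levels also differed within the Ndc80 complex, given as an example. The 4 subunits of the Ndc80 complex, which grips the microtubule, stood in noDox at 18.6 RPKM for Ndc80, 11.3 for Nuf2, 24.2 for Spc24 and 27.4 for Spc25.

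**Figure D1:**
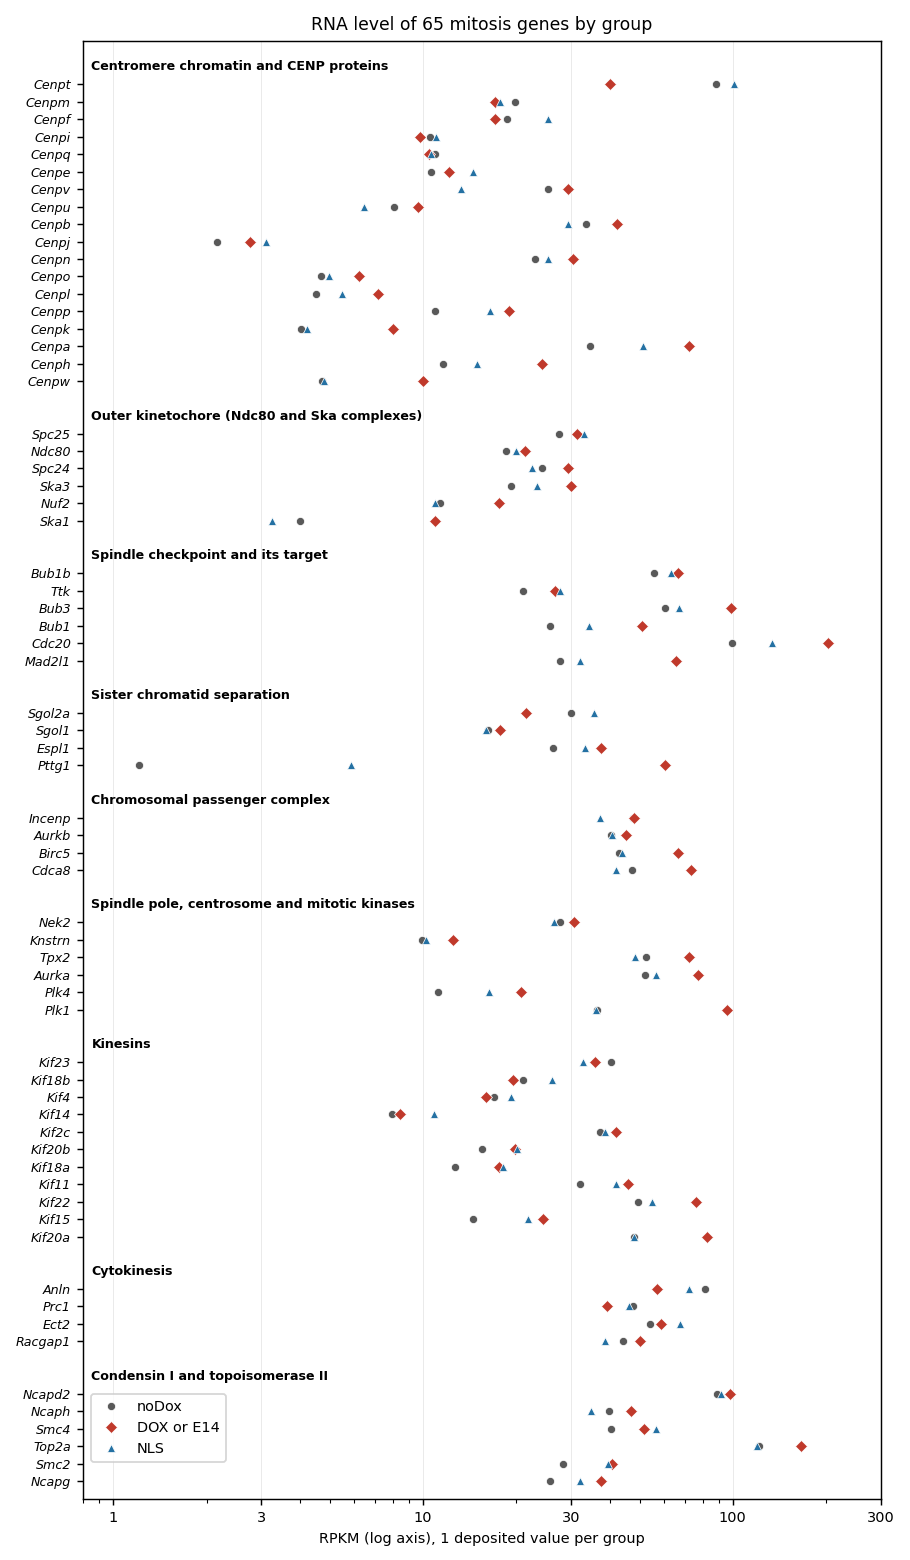
RPKM of the 65 genes on a log axis, ordered by role, with a circle for noDox, a diamond for DOX/E14 and a triangle for NLS (1 deposited value per group, pooled over 2 libraries, noDox from the DOX/E14 table). Pttg1 is the gene with the widest gap between the groups, from 1.21 RPKM in noDox to 60.4 RPKM in DOX/E14.

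Against noDox, 28 of the 65 genes rose in DOX/E14, 3 fell and 34 did not pass the test. Over all 12382 tested genes 27.2% rose and 28.3% fell, against 43.1% and 4.62% of the mitosis genes. In either direction 47.7% of the mitosis genes were called, against 55.5% of all tested genes. Every member stood at 1 RPKM or more in both groups, and of the 10855 tested genes at that level 54.2% were called, 27.3% upward and 26.8% downward. The median of the log2 folds was 0.35 (0.01 over all tested genes), with the middle 50% of the genes between 0.15 and 0.64, against −0.80 and 0.65 over all tested genes. Most changes were modest. The absolute log2 fold stayed below 0.5 in 56.9% of the mitosis genes (37.2% of all tested genes) and reached 1 in 9 of them.

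**Figure D2:**
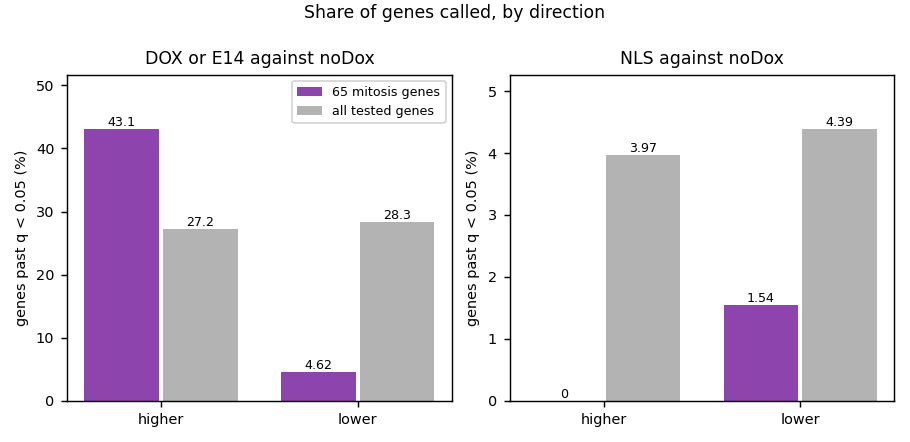
Percentage of genes past q < 0.05 in each direction, for the 65 mitosis genes and for all tested genes, in each of the 2 comparisons (left and right panels have different vertical scales, both from 0). In DOX/E14 43.1% of the mitosis genes rose and 4.62% fell, and in NLS 0% rose and 1.54% fell.

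The largest change was that of Pttg1, which encodes securin, the inhibitor of separase. It stood at 1.21 RPKM in noDox, 60.4 RPKM in DOX/E14 and 5.86 RPKM in NLS. For DOX/E14 over noDox this gave a log2 fold of 5.64 (SE 0.77), and the authors' deposited table gives it q = 0.00017, its lowest value. Among tested genes at 1 RPKM or more in noDox and DOX/E14 alike, 10855 in number, it ranked 3 by fold. Without Pttg1 the remaining log2 folds of the set ran from −1.14 to 1.46.

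The promoters of the genes carried motifs that the choice by symbol did not use. RefSeq (GRCm38.p6) gave windows from 250 bases before to 50 bases after an annotated start for 58 of the 65 genes. Windows of a gene with several starts can overlap and then hold the same element. The CHR was searched as TTTGAA or TTCGAA and the CCAAT box as CCAAT, on both strands, and matches of both motifs may overlap. At least 1 CHR lay in 62.1% of these genes (36 of 58) and in 60.9% of their 64 windows, against 19.2% of all 32851 promoter windows. Within 50 bases of a start it lay in 53.4% of the genes, against 6.12% of all genes with a window. A CCAAT box was found in 68.8% of the windows, against 37.4%, and both motifs in 51.6%, against 7.52%. Among the 25 genes with a window that rose in DOX/E14, 17 held a CHR, and among the other 33 genes 19 did. The Pttg1 and Mad2l1 windows held neither motif. A match describes letters, not a bound site. The promoters of the 4 genes with a CHR that rose most are shown to let the spacing of both motifs be read, with CHR and CCAAT matches in capitals, 5′ to 3′ on the strand of the gene. They are Plk1 (chr7:122159185-122159484, plus strand), Cenpw (chr10:30200491-30200790, minus strand), Cenpa (chr5:30666636-30666935, plus strand) and Cdc20 (chr4:118437294-118437593, minus strand).
Plk1: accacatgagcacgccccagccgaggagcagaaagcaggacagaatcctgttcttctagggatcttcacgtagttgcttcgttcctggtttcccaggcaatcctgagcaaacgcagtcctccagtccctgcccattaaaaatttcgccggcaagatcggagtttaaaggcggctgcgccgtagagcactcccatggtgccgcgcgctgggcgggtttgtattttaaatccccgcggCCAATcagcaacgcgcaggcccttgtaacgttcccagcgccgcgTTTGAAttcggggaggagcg
Cenpw: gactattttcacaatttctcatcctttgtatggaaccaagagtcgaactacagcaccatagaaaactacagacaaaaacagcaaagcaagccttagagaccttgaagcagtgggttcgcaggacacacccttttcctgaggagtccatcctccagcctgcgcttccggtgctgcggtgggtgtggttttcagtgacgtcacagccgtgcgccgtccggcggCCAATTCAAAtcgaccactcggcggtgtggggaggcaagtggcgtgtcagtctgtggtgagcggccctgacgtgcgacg
Cenpa: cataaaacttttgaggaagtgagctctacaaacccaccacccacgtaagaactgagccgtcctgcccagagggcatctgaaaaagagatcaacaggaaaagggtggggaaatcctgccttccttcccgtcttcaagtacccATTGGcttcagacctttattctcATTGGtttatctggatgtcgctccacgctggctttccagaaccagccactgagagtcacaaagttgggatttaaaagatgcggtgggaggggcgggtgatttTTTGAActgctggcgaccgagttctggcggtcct
Cdc20: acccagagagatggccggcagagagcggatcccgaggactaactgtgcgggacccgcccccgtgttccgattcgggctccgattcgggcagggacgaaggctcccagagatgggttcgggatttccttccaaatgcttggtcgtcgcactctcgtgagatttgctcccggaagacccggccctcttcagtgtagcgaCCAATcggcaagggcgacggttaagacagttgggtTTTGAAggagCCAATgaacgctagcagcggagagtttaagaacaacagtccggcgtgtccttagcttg
The CHR began 31 bases into the transcript in Plk1 and 17 bases in Cenpa, and 18 bases before the start in Cdc20. In Cenpw it lay on the other strand, 25 bases before the start, and shared 1 letter with the end of a CCAAT box.

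**Figure D3:**
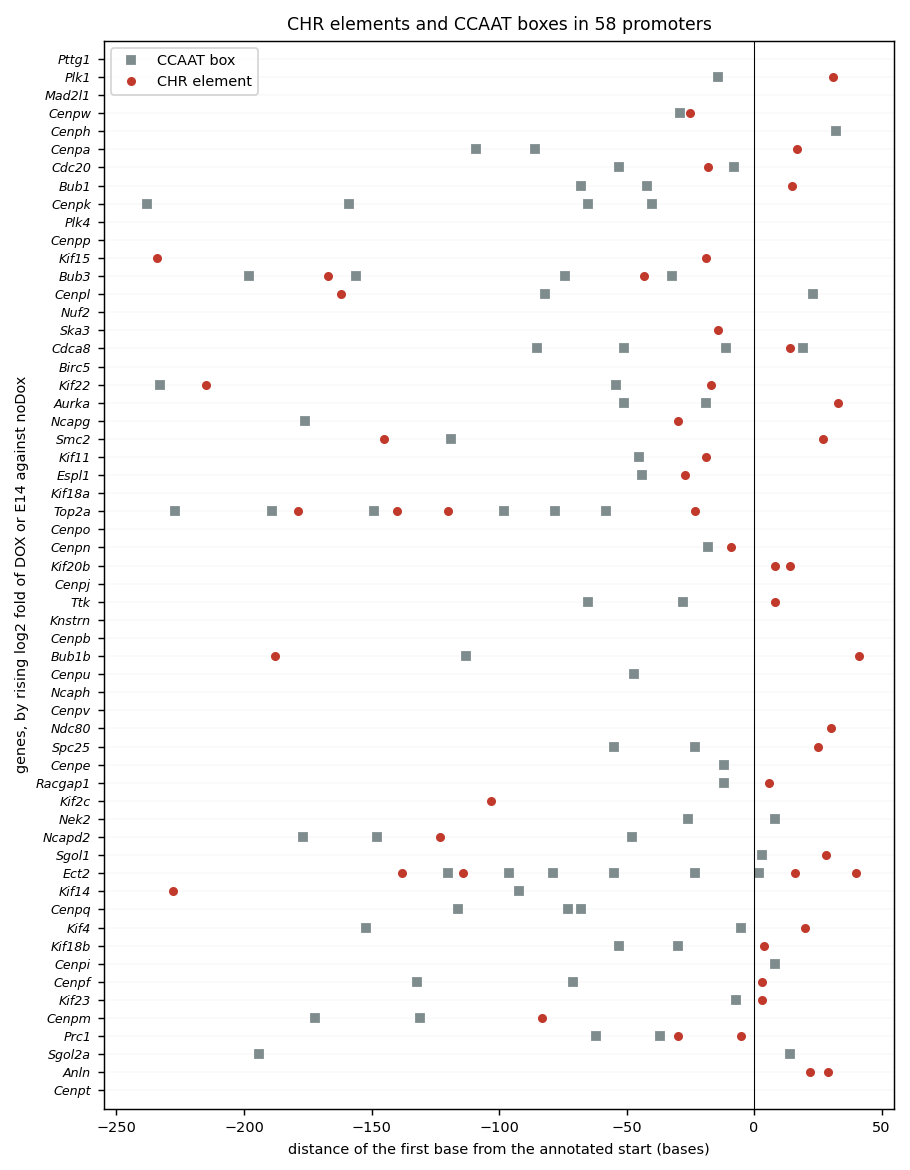
Position of each CHR element (circle) and CCAAT box (square) relative to the annotated start, in bases, for the 58 genes with a promoter window, ordered from the lowest log2 fold of DOX/E14 against noDox (bottom) to the highest (top). Genes with several annotated starts have each element drawn once per start. A CHR within 50 bases of a start was found in 31 of the 58 genes, and such elements occur among genes at the bottom of the order as well as at the top.

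Among 6 genes of the spindle checkpoint and its target 4 (66.7%) rose in DOX/E14 and 0 fell, against 27.2% and 28.3% of all tested genes. An unadjusted Cuffdiff p under 0.05 was given to 4 of them, against 7389 of all 12382 tested genes, and their median log2 fold was 0.85. The groups by role, here and below, are small, and none was tested against all genes. Mad2l1, whose protein is the core of the checkpoint inhibitor, went from 27.7 RPKM in noDox to 65.6 RPKM in DOX/E14 (log2 fold 1.24, SE 0.27; the authors' deposited table has q = 0.00017). Cdc20, the activator that MAD2 holds back, went from 99.3 to 203 RPKM (log2 fold 1.03, SE 0.28; the authors' deposited table has q = 0.00017). Bub1, a kinase that recruits the checkpoint to kinetochores, rose from 25.6 to 51.1 RPKM (log2 fold 0.99, SE 0.25), and its partner Bub3 from 60.4 to 98.7 RPKM (0.71, SE 0.25). Bub1b, the gene of BUBR1, and Ttk, the gene of the MPS1 kinase, did not pass, at log2 folds of 0.26 (SE 0.25) and 0.34 (SE 0.27).

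Genes of sister chromatid separation moved in different directions. Beside Pttg1, its partner Espl1, the gene of separase, rose from 26.3 to 37.5 RPKM (log2 fold 0.51, SE 0.25; the authors' deposited table has q = 0.0102). Sgol2a, one of the shugoshins that protect centromeric cohesin, fell from 29.99 to 21.6 RPKM (−0.48, SE 0.26; the authors' deposited table has q = 0.0179). Sgol1 did not pass, at 16.2 and 17.7 RPKM. In noDox the inhibitor stood below the protease, with Pttg1 at 1.21 and Espl1 at 26.3 RPKM, and Pttg1 stood above Espl1 in DOX/E14 alone, at 60.4 against 37.5 RPKM.

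Among the 18 Cenp genes 5 rose, 1 fell and 12 did not pass. The share that rose, 27.8%, was near the 27.2% of all tested genes, and the share that fell was 5.56%, against 28.3%. Cenpa, the centromeric histone itself, rose from 34.7 to 72.4 RPKM (log2 fold 1.06, SE 0.27; the authors' deposited table has q = 0.00017). Cenph, a subunit of the constitutive centromere network, rose from 11.6 to 24.2 RPKM (1.07, SE 0.33) and Cenpw from 4.72 to 10.01 RPKM (1.09, SE 0.39; the authors' deposited table has q = 0.00061). Cenpp and Cenpl, further subunits of that network, rose from 10.9 to 18.9 and from 4.51 to 7.13 RPKM.

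Cenpt was the exception and the largest fall of the set. It went from 88.1 RPKM in noDox to 40.0 RPKM in DOX/E14 (log2 fold −1.14, SE 0.26; the authors' deposited table has q = 0.00017), and stood at 101 RPKM in NLS. CENP-T and CENP-W form a histone-fold dimer in the kinetochore, so the genes of these direct partners changed in opposite directions in DOX/E14. Cenpe, a kinesin of the kinetochore, and Cenpf, a kinetochore protein of the late cell cycle, did not pass, at log2 folds of 0.19 (SE 0.27) and −0.12 (SE 0.26).

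In the outer kinetochore 3 of 6 genes (50%) rose and 0 fell, against 27.2% and 28.3% of all tested genes. An unadjusted Cuffdiff p under 0.05 was given to 3 of the 6, against 7389 of all 12382 tested genes. Ska1, a subunit of the complex that keeps kinetochores on shrinking microtubules, rose from 3.99 to 10.9 RPKM (log2 fold 1.46, SE 0.34; the authors' deposited table has q = 0.00017). Its partner Ska3 rose from 19.2 to 29.98 RPKM (0.64, SE 0.28). Of the Ndc80 complex Nuf2 rose from 11.3 to 17.6 RPKM (0.64, SE 0.29), whereas Ndc80, Spc24 and Spc25 did not pass, at log2 folds of 0.20 to 0.28.

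Of the kinases and spindle pole genes 4 of 6 (66.7%) rose and 0 fell, against 27.2% and 28.3% of all tested genes. An unadjusted Cuffdiff p under 0.05 was given to 4 of the 6, against 7389 of all 12382 tested genes. Plk1, the Polo kinase of mitotic entry and spindle assembly, stood at 36.4 RPKM in noDox, 96.1 RPKM in DOX/E14 and 36.3 RPKM in NLS. In DOX/E14 its log2 fold was 1.40 (SE 0.26; the authors' deposited table has q = 0.00017). Plk4, the kinase that licenses centriole duplication, rose from 11.2 to 20.7 RPKM (0.89, SE 0.28). Aurka and its activator Tpx2 rose from 52.2 to 77.4 RPKM (0.57, SE 0.26) and from 52.5 to 72.0 RPKM (0.46, SE 0.26). Nek2, a centrosome kinase, and Knstrn, a spindle adaptor, did not pass.

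In the chromosomal passenger complex, which corrects faulty attachments, 2 of 4 genes (50%) rose and 0 fell, against 27.2% and 28.3% of all tested genes. Birc5, the gene of survivin, rose from 43.0 to 66.5 RPKM (log2 fold 0.63, SE 0.30) and Cdca8, the gene of borealin, from 47.2 to 73.3 RPKM (0.63, SE 0.26). The kinase gene Aurkb and the scaffold gene Incenp did not pass, at log2 folds of 0.16 (SE 0.26) and 0.02 (SE 0.25). All 4 folds were above 0, and no difference between the subunits was tested.

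Among 11 kinesin genes 5 (45.5%) rose and 0 fell, against 27.2% and 28.3% of all tested genes. An unadjusted Cuffdiff p under 0.05 was given to 5 of the 11, against 7389 of all 12382 tested genes. Kif20a, needed for cytokinesis, rose from 48.1 to 82.3 RPKM (log2 fold 0.78, SE 0.41), Kif15, a spindle motor, from 14.5 to 24.5 RPKM (0.75, SE 0.26), and Kif22, a kinesin that binds chromosome arms, from 49.5 to 75.8 RPKM (0.61, SE 0.26). Kif11, the motor that pushes spindle poles apart, and Kif18a, which dampens chromosome movement, rose from 32.1 to 45.9 and from 12.6 to 17.6 RPKM. The other 6 genes lay between log2 folds of −0.17 for Kif23 and 0.35 for Kif20b. Condensin and topoisomerase II gave 3 rises (50%) and 0 falls among 6 genes, against the same shares of all tested genes. An unadjusted Cuffdiff p under 0.05 was given to 4 of these 6, against the same 7389 of 12382 tested genes. Smc2 rose from 28.3 to 40.6 RPKM, Ncapg from 25.8 to 37.6 RPKM and Top2a from 121 to 167 RPKM (log2 fold 0.46, SE 0.28; the authors' deposited table has q = 0.0404).

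Of the 4 cytokinesis genes 0 rose and 1 (25%) fell, against 27.2% and 28.3% of all tested genes. An unadjusted Cuffdiff p under 0.05 was given to 1 of the 4, against 7389 of all 12382 tested genes. Anln, the gene of the actin and septin binder anillin, stood at 81.1 RPKM in noDox and fell to 56.9 RPKM (−0.51 on the log2 scale, SE 0.32; the authors' deposited table has q = 0.0419). Prc1, which bundles midzone microtubules, stood at 47.8 and 39.2 RPKM, and Ect2 and Racgap1, regulators of the RhoA zone, at 54.0 and 58.7 and at 44.2 and 50.1 RPKM. The tables place Anln in a locus of 334 kb that is shared by 16 genes, and 12 of the 65 genes share their locus with others. Among the 53 genes with a locus of their own, 23 (43.4%) rose and 2 (3.77%) fell. Over all 65 genes the shares were 43.1% and 4.62%.

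**Figure D4:**
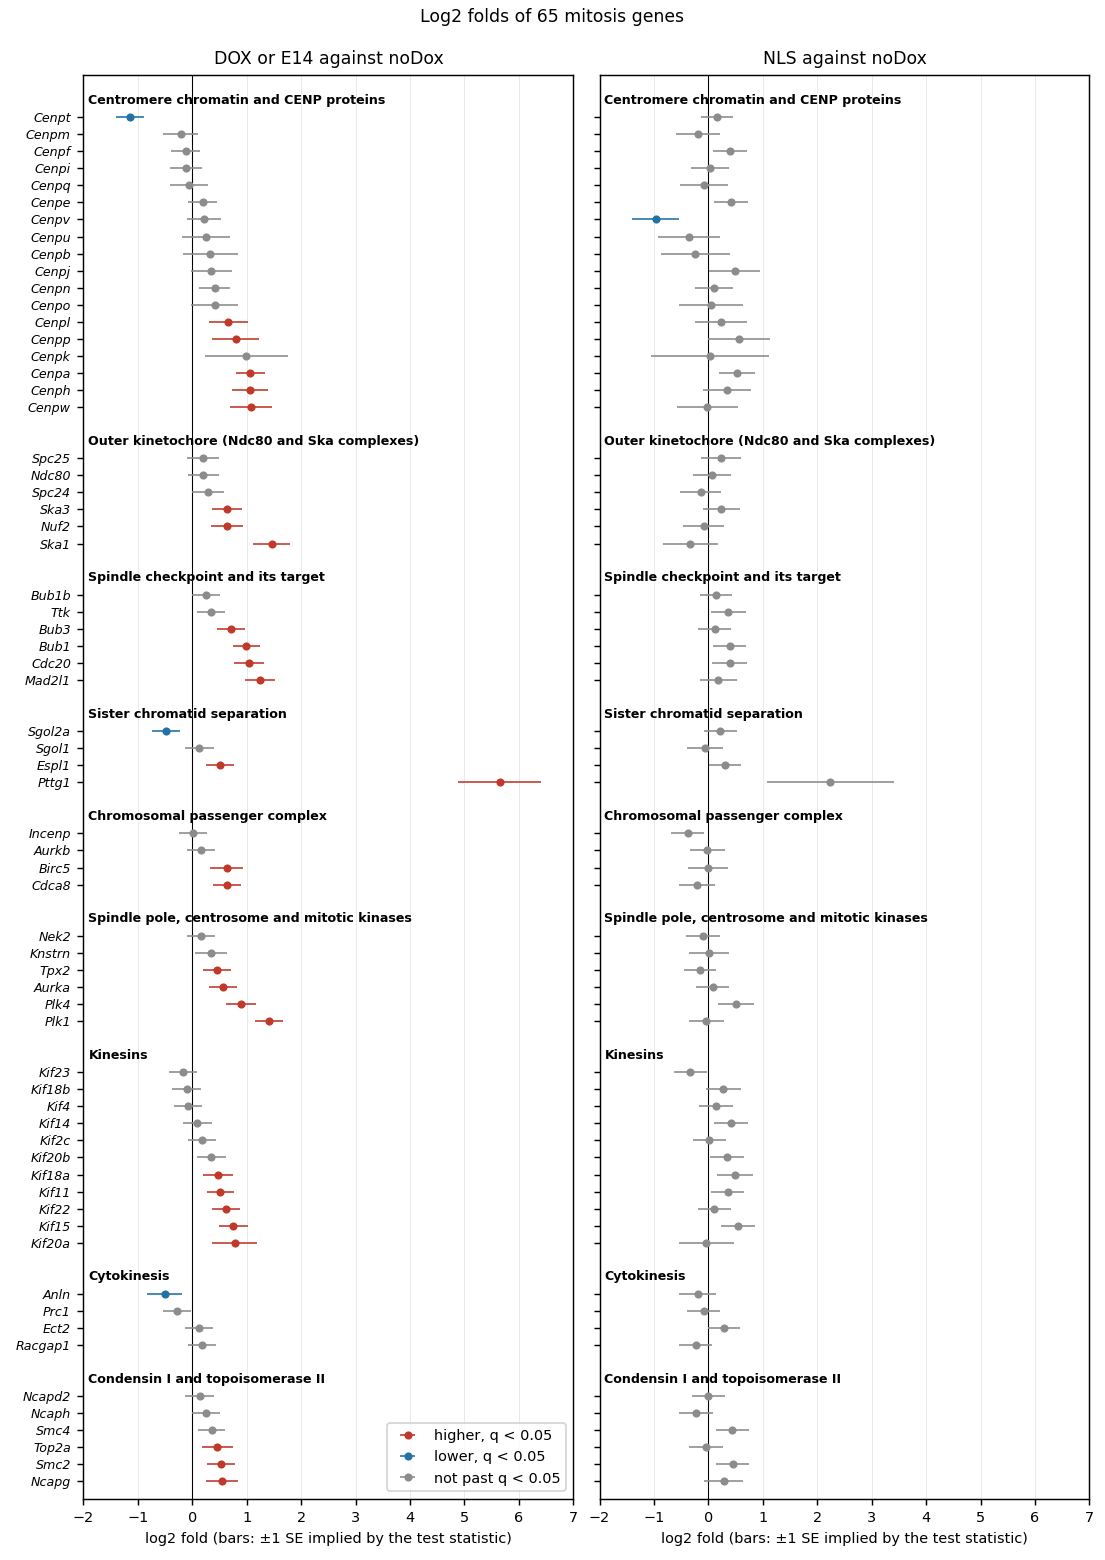
Log2 fold of each of the 65 genes against noDox, for DOX/E14 (left) and NLS (right), with bars of 1 SE as implied by the authors' test statistic. Filled red and blue points passed q < 0.05 (28 higher and 3 lower on the left, 0 and 1 on the right) and grey points did not.

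In NLS, the cells with nuclear AGO2, few of these genes were called. Of the 65 genes 0 rose and 1 fell at q < 0.05 in the authors' deposited table, while 8 had an unadjusted Cuffdiff p under 0.05. Such a p was given to 2697 of all 12936 genes tested in NLS. Over all 12936 tested genes 8.36% were called, 3.97% upward and 4.39% downward, and over the 11607 with at least 1 RPKM in both groups 8.23%, 3.58% and 4.65%. The median log2 fold of the set was 0.11 (−0.01 over all tested genes), a value whose sign turned, to −0.10, when the table was scaled to the RPKM sum of genes other than microRNA and small nucleolar RNA genes. The absolute log2 fold was below 0.5 in 90.8% of the mitosis genes and in 65.5% of all tested genes.

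The single call was Cenpv, named for a centromere protein, which fell from 26.0 RPKM in noDox to 13.3 RPKM in NLS (log2 fold −0.97, SE 0.43; the authors' deposited table has q = 0.0305). In DOX/E14 it stood at 29.3 RPKM against 25.3 RPKM in noDox and did not pass. No gene of the set was called in both comparisons (0 of 65), which share the noDox libraries. With a single call in NLS, that count was nearly fixed in advance, and the share over all tested genes was not computed. The 0 is therefore not a result about these genes. Of the genes that did not pass in NLS, Pttg1 had the highest fold, from 1.24 to 5.86 RPKM (log2 fold 2.24, SE 1.16; the authors' deposited table has q = 0.157). Kif15 and Cenpa followed among those at an unadjusted Cuffdiff p under 0.05, at log2 folds of 0.55 (SE 0.31) and 0.52 (SE 0.34). Checkpoint genes lay between 0.11 and 0.40, passenger complex genes between −0.38 and −0.01, and none of these 10 passed.

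Whether the NLS and DOX/E14 folds differ was tested directly, as a z, a normal approximation, with Benjamini-Hochberg adjustment over 11907 genes. Of the 65 genes 3 differed, against 13.0% of all genes tested, made up of 9.78% higher and 3.18% lower in NLS. Plk1 was lower in NLS by a log2 difference of −1.44 (SE 0.41, adjusted p = 0.00658, z test on the errors of the authors' model), with folds of −0.04 in NLS and 1.40 in DOX/E14. Ska1 was lower in NLS by −1.79 (SE 0.61, adjusted p = 0.03, z test on the errors of the authors' model), with 3.25 RPKM in NLS against 10.9 RPKM in DOX/E14. Cenpt was higher in NLS by 1.30 (SE 0.40, adjusted p = 0.0127, z test on the errors of the authors' model), at 101 RPKM against 40.0 RPKM. For Pttg1 the difference of −3.40 had an SE of 1.39 and did not pass (adjusted p = 0.0886, z test on the errors of the authors' model), nor did that of Mad2l1, at −1.06 (SE 0.43, adjusted p = 0.085, z test on the errors of the authors' model). The calls of the other genes in DOX/E14 are therefore not shown to be absent from NLS.

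**Figure D5:**
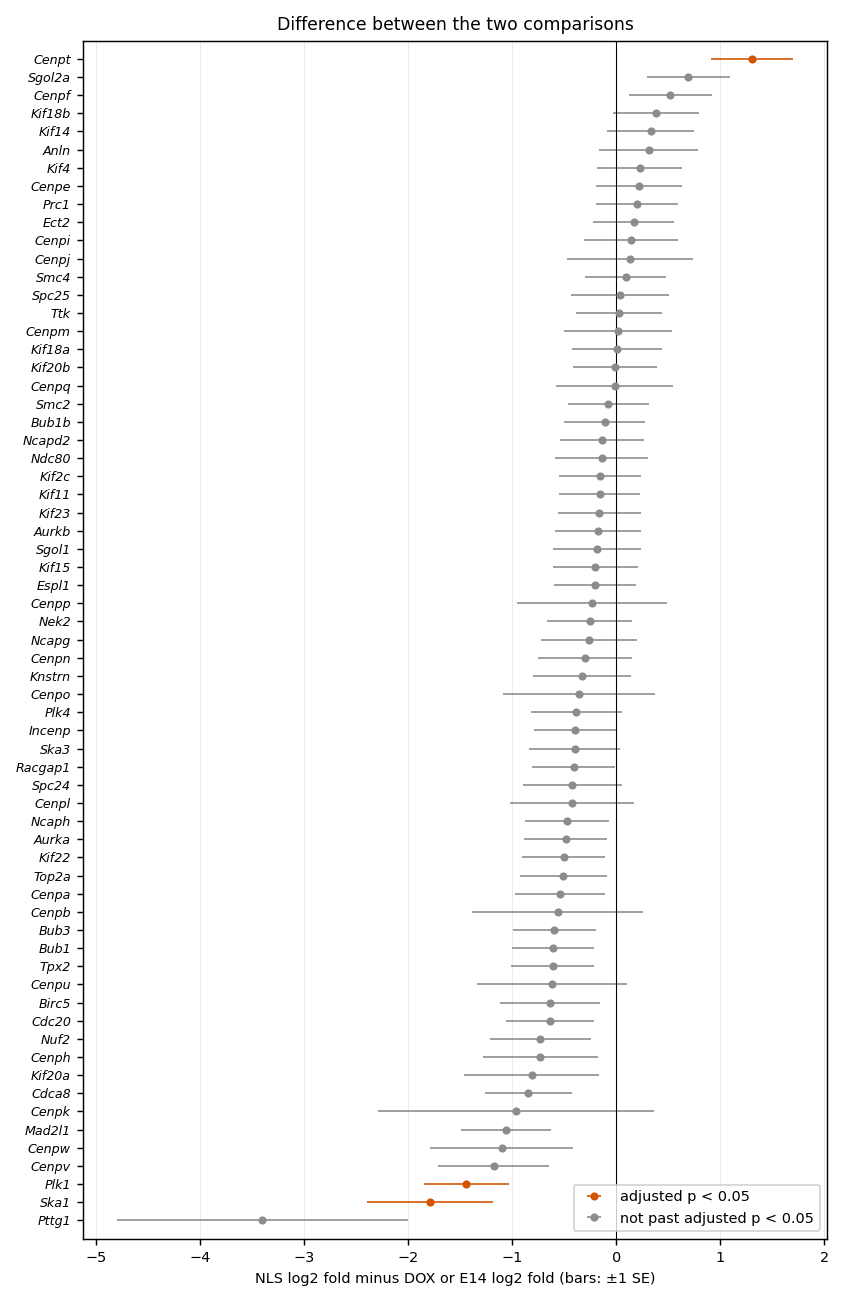
Difference of the log2 folds, NLS minus DOX/E14, for each of the 65 genes with bars of 1 SE, ordered by size. Plk1, Ska1 and Cenpt (orange) passed an adjusted p of 0.05. The point estimate was below 0 for 48 genes and above 0 for 17. The same count was not made over the 11907 genes tested, so 48 and 17 have no background beside them. Both counts also depend on how each table was scaled, and no shift of the whole set was tested.

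Other genes of mitosis were taken from lists by function, and no difference between these lists and the 65 genes was tested. Of 129 further genes 42 rose (32.6%, against 27.2% of all tested genes) and 22 fell (17.1%, against 28.3%) in DOX/E14, with a median log2 fold of 0.22. In NLS 1 rose (0.775%, against 3.97%) and 3 fell (2.33%, against 4.39%), with a median of −0.02. Among 17 genes of mitotic entry 7 (41.2%) rose and 1 (5.88%) fell in DOX/E14. Cks1b and Ccnb1, a Cdk1 cofactor and a B-type cyclin, rose from 66.5 to 176 and from 34.0 to 86.4 RPKM, Bora, an activator of Aurora A, rose from 13.2 to 32.9 RPKM, and Pkmyt1, an inhibitory kinase of Cdk1, fell from 27.2 to 7.51 RPKM. Mki67, the widely used marker of dividing cells, did not pass, at 44.7 RPKM in noDox and 37.2 RPKM in DOX/E14.

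A list of 15 genes held the DREAM, MuvB and Foxm1 factors and also Nfya, Nfyb and Nfyc, genes of the CCAAT box factor NF-Y. Of the 15 genes 4 (26.7%) rose and 6 (40%) fell in DOX/E14, against 27.2% and 28.3% of all tested genes. Nfyb was among the rises and Nfya among the falls, and Nfyc did not pass. The largest fall was that of Rbl2, the gene of the pocket protein p130, from 13.5 to 1.38 RPKM (log2 fold −3.30, SE 0.60). The MuvB gene Lin37 fell from 25.2 to 9.79 RPKM (−1.36, SE 0.36), and it also fell in NLS, from 25.8 to 13.2 RPKM (−0.97, SE 0.44; the authors' deposited table has q = 0.038). Tfdp1, the dimer partner of E2F proteins, rose from 18.1 to 78.9 RPKM, and E2f4 from 55.9 to 122 RPKM. Foxm1 and Mybl2, activators of late cell cycle genes, did not pass, at log2 folds of −0.36 (SE 0.26) and 0.09 (SE 0.26).

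Of 18 genes of the anaphase-promoting complex and its enzymes 8 (44.4%) rose and 3 (16.7%) fell in DOX/E14. The subunit genes Cdc26 and Cdc16 rose from 9.99 to 33.3 and from 26.5 to 66.0 RPKM. The inhibitor gene Fbxo5 rose from 21.9 to 58.04 RPKM and the subunit gene Anapc11 from 7.93 to 16.7 RPKM. Anapc10 fell in both comparisons, from 13.8 to 6.96 RPKM in DOX/E14 and from 14.2 to 7.46 RPKM in NLS (NLS log2 fold −0.93, SE 0.38; the authors' deposited table has q = 0.017). Of 27 other kinetochore genes 7 (25.9%) rose, a share near that of all tested genes, and 3 (11.1%) fell in DOX/E14. Among them were Bod1, a kinetochore phosphatase regulator, up from 15.7 to 32.3 RPKM and Zwint, a kinetochore scaffold gene, down from 149 to 77.7 RPKM. Clip1, the gene of a microtubule plus-end protein, fell from 8.54 to 5.40 RPKM in DOX/E14 and from 8.77 to 4.08 RPKM in NLS.

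Of 32 other spindle, centrosome and midbody genes 10 (31.2%) rose and 6 (18.8%) fell in DOX/E14. The largest fall was that of Cep55, which directs abscission at the midbody, from 107 to 19.3 RPKM (log2 fold −2.47, SE 0.27). Pcnt, the gene of the centrosome scaffold pericentrin, fell from 35.0 to 16.1 RPKM. Of 14 cohesin genes 4 (28.6%) rose, again near the share of all tested genes, and 3 (21.4%) fell. Rad21, the cohesin subunit that separase cuts, fell from 134 to 76.7 RPKM, and Esco2, a cohesin acetyltransferase, rose in DOX/E14, from 16.6 to 24.9 RPKM, and in NLS, from 17.0 to 27.0 RPKM (NLS log2 fold 0.67, SE 0.33; the authors' deposited table has q = 0.049). Of 6 condensin II and chromosome periphery genes 2 (33.3%) rose and 0 fell, led by Ncapg2, from 5.19 to 13.1 RPKM. An unadjusted Cuffdiff p under 0.05 was given to 2 of the 6, and to 7389 of all 12382 tested genes.

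Seed matches of microRNAs were looked for in the 3′ untranslated regions (UTRs), since Argonaute-bound microRNAs act there. The mature sequences below, from RefSeq (GRCm38.p6), stand for the embryonic stem cell family of miR-294 and for let-7, with the seed (bases 2 to 8) in capitals.
mmu-miR-294-3p: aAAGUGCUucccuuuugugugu
mmu-let-7a-5p: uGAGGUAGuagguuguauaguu
The matching site AGCACTT for miR-294 lay in the longest annotated 3′ UTR of 9 of the 65 genes (13.8%), against 17.5% of 10991 genes tested in both tables. The let-7 site CTACCTC lay in 6 genes (9.23%), against 10.7%. The UTRs of the set were shorter, with a median of 603 bases against 1136 bases. Per 10 kb there were 1.42 miR-294 sites against 1.34, and 0.85 let-7 sites against 0.75. Of the 9 genes with a miR-294 site, Cenpl, Smc2, Ska1, Mad2l1 and Plk4 rose in DOX/E14, and Cenpq, Ect2, Spc24 and Knstrn did not pass. Of the let-7 genes Cenpw, Birc5, Kif11, Espl1 and Bub3 rose and Spc24 did not pass. For comparison, 43.1% of the 65 genes and 27.2% of all tested genes rose. A link between sites and rises was not tested. None of these genes was called in NLS (0 of 14 genes with either site at q < 0.05 in the authors' deposited table), where Smc2 and Plk4 had an unadjusted Cuffdiff p under 0.05. Calls were rare in NLS, at 1.54% of the 65 genes and 8.36% of all tested genes. The 0 of 14 is therefore not a result about the sites. A site of each kind is shown with the bases around it, the match in capitals.
Plk4, miR-294 site: tttatttttatAGCACTTgtgtctgataa
Bub3, let-7 site: ggactttactaCTACCTCattgctttaaa
The Plk4 site begins at base 397 of a 3′ UTR of 466 bases and the Bub3 site at base 272 of 2439. A seed match is a description of the letters and does not show that a microRNA acts there.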

How the data were processed

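RNA from whole cells was depleted of ribosomal RNA and sequenced from directional libraries, per the labels' protocols. The tools named in the submitters' processing notes are TopHat, Cuffdiff and bcl2fastq 2.17.1, and the build is mm10. The annotation, other versions and strand setting are not given in the sources used here, so reads of overlapping or near-identical genes are uncertain. The RPKM values, the signed test statistic (a score), and the p-values and q-values are the authors', per the file headers, with 1 value per group. Library depth is unknown, no library could be left out, and p-values measure only the spread between samples that may be technical replicates.

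Log2 folds were computed from RPKM with no pseudocount. The SE is the absolute log2 fold over the absolute statistic. The z that the p-values imply exceeds the statistic by a median factor of 1.41 (DOX/E14) and 1.42 (NLS), so this SE is mostly the larger estimate. The difference of NLS and DOX/E14 folds was tested with a z whose variance sums both squared SEs and counts the noDox variance although it cancels. This is a normal approximation: with no value per library, no exact or permutation test could be run. Its script was run on simulated data that assume these SEs, so the SEs themselves were not tested. Adjustment used statsmodels 0.14.6 over all genes tested, and other work used Python 3.11.15 with pandas 2.3.3. The authors' deposited summary of log2 folds was not used. The members and lists were chosen with earlier results of these data known. All members could be named, with full values for the 10 called members of largest fold per table, for those that differ between NLS and DOX/E14, and for up to 4 called genes per other list and table. Promoters came from RefSeq (GRCm38.p6) and 3′ UTRs from GENCODE (GRCm38), the build of the tables.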

Additional observations from a re-analysis of the deposited data

How the results depend on the processing

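The count of called genes in the DOX/E14 comparison was 31. It was 9 when the log2 fold also had to reach 1 in size, and 21 (20 higher, 1 lower) at q under 0.01. In NLS the count of 1 became 0 at q under 0.01 and 0 where the fold had to reach that size. The 3 differences between NLS and DOX/E14 became 1, that of Plk1, at an adjusted p under 0.01. They became 0 when the SE was taken from the deposited p, which leaves out genes at the lowest p, Plk1, Ska1 and Cenpt among them. The NLS median of 0.11 turned to −0.10 when scaled to the RPKM sum without microRNA and small nucleolar RNA genes, a scaling that shifts every NLS fold down by 0.21. Of 32 alternatives 26 left a count within 1.5 times, or a median with the same sign and within 1 median SE. Some of these could not have moved a result. Every member stood at 1 RPKM or more in each group, so medians under a filter at that level repeat the main value. The 3 differences all exceeded 1 in size from the start. The tally is therefore no measure of how stable the results are. Leaving out Pttg1, or genes that share a locus, was chosen after seeing the data and left 30 and 25 calls in DOX/E14. No paired analysis was possible because the tables hold 1 value per group, and for the same reason leaving out a replicate was not run.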
